A study of Mus musculus with 8 samples.

Results

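Hypoxia-inducible and oxygen-sensing genes were followed across a mouse neuroblastoma line, a clone of it and a retinoic acid (RA) treatment. The set holds 10 genes, Hif1a, Egln1, Egln3, Ankrd37, Slc2a1, Ldha, Pdk1, Bnip3, Vegfa and Ndrg1, found as the non-control probes whose RefSeq accession belongs to one of them. They were read by 16 of the 55681 probes, and each gene stands among the 26262 genes tested. The 4 groups, with 2 arrays each, were the 2/4 clone with RA, the 2/4 clone untreated, the parental N18TG2 line with RA and the parental N18TG2 line untreated. By its label the 2/4 clone expresses ChAT, choline acetyltransferase, which synthesises acetylcholine. It is 1 clone, and it was kept in G418 at 200 µg/mL. RA was all-trans retinoic acid at 1 µM, a vitamin A derivative used to differentiate neuroblastoma cells, given in medium with 1% serum, while growth medium held 10% serum. The labels used here give no oxygen level, no length of RA treatment and no medium for the untreated cells, so serum cannot be told apart from RA, nor G418 from the clone.

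Cells sense oxygen mainly through the hypoxia-inducible factors, transcription factors whose alpha subunit is made all the time and destroyed when oxygen is present. Prolyl hydroxylases of the Egln family use oxygen to mark the alpha subunit, and the von Hippel-Lindau protein then sends it to the proteasome. When the mark is missing, the alpha subunit joins Arnt and raises genes of glucose uptake, glycolysis, mitophagy and vessel growth, as well as some of the hydroxylases themselves. This control acts on protein, so the RNA of Hif1a is not a measure of factor activity.

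The 8 arrays shared 1 slide and 1 scan time. Slide row 1 held the parental RA and the untreated clone arrays, and row 2 the clone RA and the untreated parental arrays. Row therefore cannot be told apart from RA within a line, from line within a treatment, or from the difference between the RA responses, and it cancels only where both lines or both treatments are averaged. Slide columns 1 and 3 held only parental arrays, and columns 2 and 4 only clone arrays. Column therefore cannot be told apart from line in any comparison between the lines, the averages included. The 75th percentile of intensity ran from 264.8 to 1264 across arrays. The array clone RA replicate 1 stood apart with 71.8% of its probes well above background, while the other 7 had 47.8% to 62.8%, so results that rest on it are given without it where the call changes. All 16 listed markers of sympathoadrenal neuroblasts were above background in each group, as were 3 of 9 markers of hippocampal neurons (Camk2a, Wfs1 and Zbtb20). Tbr1 was above it on both parental RA arrays, and the other 5 on both arrays of no group, with Prox1, Neurod2 and Neurod6 on no array. The labels' extraction text speaks of hippocampus. Cyp26b1, an RA-induced enzyme, rose in the clone with RA by log2 6.38 ± 0.60 and in the parental line by 5.44 ± 0.60 (standard error, limma adjusted p = 0.0117 and 0.0156). Rarb, an RA receptor gene induced by RA, was well above background on both parental RA arrays and on 0 of the other 6. Chat itself read 1.10 and -2.58 on the clone RA arrays, against -3.22 and -5.06 on the parental RA arrays, a difference of 3.40 ± 1.27 (limma adjusted p = 0.0996) that was 1.56 without clone RA replicate 1 (adjusted p = 0.316) and 5.24 without clone RA replicate 2 (0.00713). Untreated, Chat differed by 0.38 ± 1.27 (adjusted p = 0.897). Whether its probe reads the introduced gene is not given.

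Stretches of 250 bases before the transcription start are shown for the called members that RefSeq's promoter table (build GRCm38.p6) lists, since these are the genes whose levels moved. Ndrg1, which was also called, has no stretch listed there. A hypoxia-inducible factor binds short elements with the core ACGTG or GCGTG, and matches to either core on either strand are in capitals. The stretch of Egln3 is chr12:54203875-54204124 and that of Ankrd37 is chr8:45999851-46000100, both on the minus strand. For Pdk1 it is chr2:71872974-71873223 on the plus strand, the first of 2 listed starts, and for Bnip3 chr7:138909507-138909756 on the minus strand.
Egln3: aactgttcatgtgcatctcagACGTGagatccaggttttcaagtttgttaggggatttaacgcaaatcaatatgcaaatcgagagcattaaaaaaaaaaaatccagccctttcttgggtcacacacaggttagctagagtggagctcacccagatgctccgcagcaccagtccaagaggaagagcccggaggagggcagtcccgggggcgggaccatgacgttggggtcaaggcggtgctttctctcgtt
Ankrd37: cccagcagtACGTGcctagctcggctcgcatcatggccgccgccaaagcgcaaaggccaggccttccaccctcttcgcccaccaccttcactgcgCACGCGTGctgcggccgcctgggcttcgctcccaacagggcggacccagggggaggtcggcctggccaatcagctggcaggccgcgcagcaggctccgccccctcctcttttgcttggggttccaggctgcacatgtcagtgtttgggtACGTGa
Pdk1: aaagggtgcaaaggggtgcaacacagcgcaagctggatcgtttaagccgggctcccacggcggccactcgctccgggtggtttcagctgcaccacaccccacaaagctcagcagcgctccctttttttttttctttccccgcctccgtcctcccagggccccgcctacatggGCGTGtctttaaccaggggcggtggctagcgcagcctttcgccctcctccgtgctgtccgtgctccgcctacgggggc
Bnip3: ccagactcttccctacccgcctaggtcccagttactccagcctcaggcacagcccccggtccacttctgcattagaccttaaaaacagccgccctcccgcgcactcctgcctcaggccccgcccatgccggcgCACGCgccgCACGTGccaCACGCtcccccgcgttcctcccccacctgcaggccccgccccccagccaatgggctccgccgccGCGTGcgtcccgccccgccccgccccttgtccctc

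The Egln3 stretch held 1 match, at 229 bases before the start, and the Pdk1 stretch shown 1, at 78 bases, while the stretch at the second Pdk1 start held 0. Ankrd37 had 4 matches, at 241, 155, 152 and 6 bases before the start, and those at 155 and 152 bases overlap. Bnip3 had 5, between 117 and 35 bases before the start, of which a pair is the same stretch read on both strands. At least 1 match was found in 10 of the 12 stretches listed for 9 of the 10 members, against 38.6% of 32851 stretches of the same length in the table, with base composition not matched. Members that were not called held matches too, 3 for Hif1a and 2 each for Egln1 and Slc2a1. The 2 Vegfa stretches held 0 and 2, and the 2 Ldha stretches 5 and 1. In the table, 16.7% of stretches had 2 or more matches. The matches describe these letters and not binding.

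The 10 genes did not move as a block. With RA in the clone, Ankrd37 rose 3.08-fold, whereas Ndrg1 fell 14.7-fold and Egln3 fell 3.68-fold. That is 1 higher and 2 lower of 10, where 2.58% of all 26262 genes were called higher and 2.05% lower (4.63% in either direction) at a limma adjusted p under 0.05. With RA in the parental line 0 of 10 were called, against 1.12% of all genes (0.529% higher and 0.59% lower). Ndrg1 and Slc2a1 were the members with an unadjusted limma p under 0.05 there, a threshold that 14.4% of all genes passed. Between the lines under RA, Pdk1, Ankrd37 and Bnip3 were higher in the clone and Ndrg1 and Egln3 lower, which is 5 of 10 against 23.2% of all genes (12.9% higher and 10.2% lower). Between the untreated lines only Pdk1 was called, 1 of 10 against 9.82% of all genes (6.13% higher and 3.69% lower). The members, and the pathway list described below, were chosen with earlier results of these data known. Their shares beside those of all genes are therefore descriptions, here and below. In bulk RNA a lower level per cell and fewer cells that carry the transcript cannot be told apart.

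**Figure D1:**
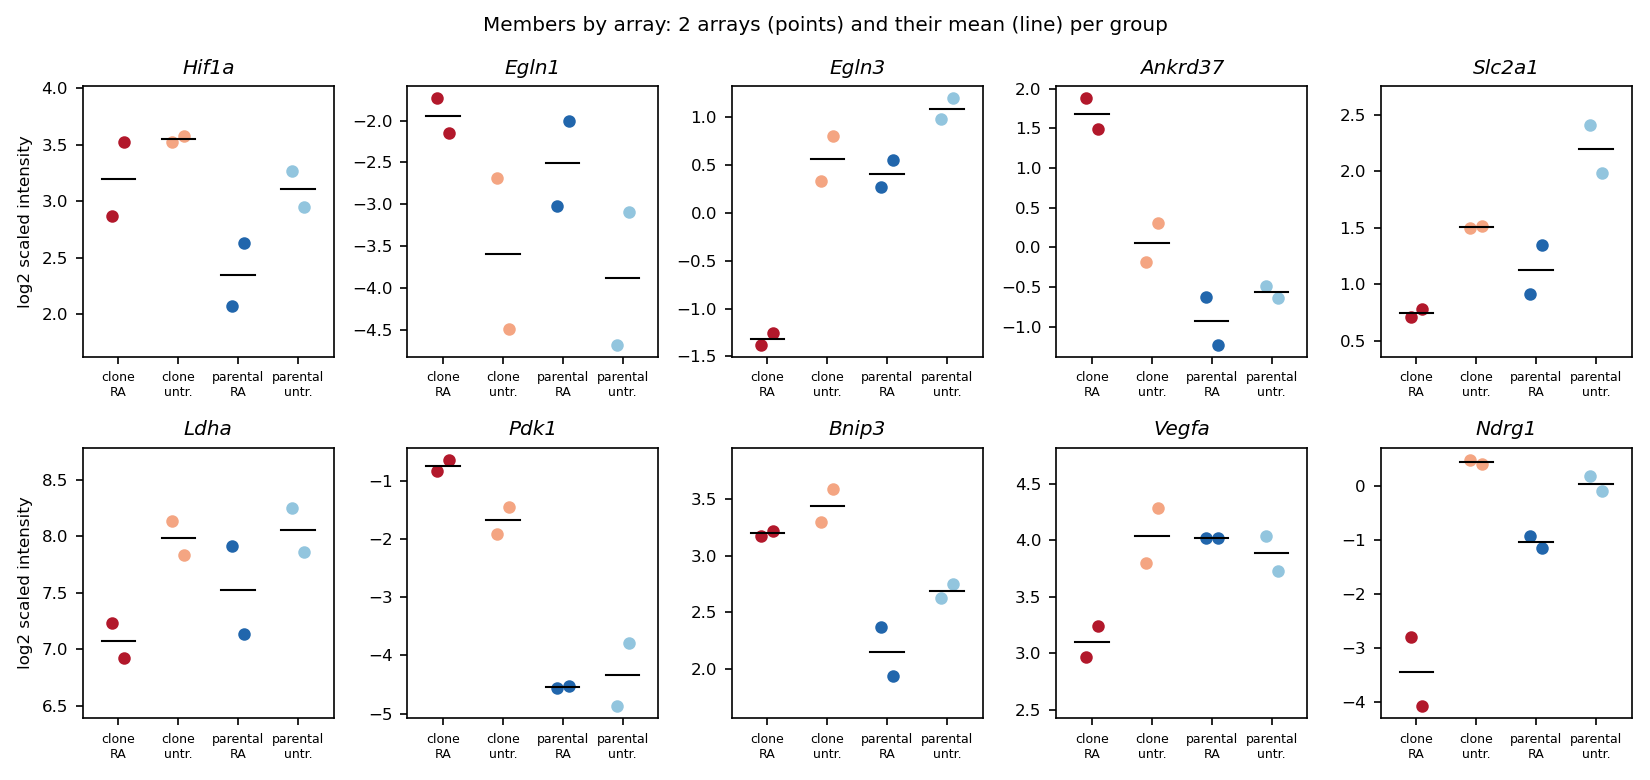
Level of each of the 10 genes on every array, as log2 of the background-subtracted intensity over the array's 75th percentile (vertical axis, a range of its own per gene), with 2 arrays as points and their mean as a line for clone RA, clone untreated, parental RA and parental untreated. Ndrg1 and Egln3 are lowest on the clone RA arrays, Ankrd37 is highest there, and Pdk1 is higher on all 4 clone arrays than on all 4 parental arrays.

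Levels below are log2 of the background-subtracted intensity over the array's 75th percentile, so 0 is that percentile, and levels of different probes are not compared. Hif1a, the oxygen-labile alpha subunit of hypoxia-inducible factor 1, read 2.87 and 3.53 on the clone RA arrays, against 3.52 and 3.57 on the untreated clone arrays. The parental arrays read 2.07 and 2.63 with RA, against 3.26 and 2.95 untreated. The parental RA arrays were the lowest, and clone RA replicate 2 lay within the range of the untreated clone. No Hif1a difference passed the test. The RA difference was -0.35 in the clone (95% interval -1.17 to 0.47, limma adjusted p = 0.603) and -0.76 in the parental line (-1.58 to 0.06, adjusted p = 0.387). Averaged over treatments Hif1a was 0.65 ± 0.24 above the parental level in the clone (adjusted p = 0.0921), a difference called in 1 alternative, a trended and robust variance (adjusted p = 0.04).

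Egln1 encodes PHD2, the main hydroxylase that marks Hif1a when oxygen is present. Its probe was dim, at -1.73 and -2.15 on the clone RA arrays against -2.69 and -4.49 on the untreated clone arrays. Parental arrays gave -3.03 and -2.00 with RA, against -4.68 and -3.09 untreated, and 1 of the 2 untreated parental arrays was not well above background. The groups with RA lay above those without within each line, and the untreated pairs were spread widely (SD 1.28 for the clone, 1.12 for the parental line). The average RA difference of 1.51 had an interval from 0.26 to 2.76 and an adjusted p of 0.152, from 1.65 for the clone (adjusted p = 0.259) and 1.37 for the parental line (0.49).

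Egln3 encodes PHD3, a hydroxylase of the same family that is itself induced by the hypoxia-inducible factors. It read -1.37 and -1.25 on the clone RA arrays, against 0.33 and 0.80 on the untreated clone arrays. In the parental line it stood at 0.27 and 0.55 with RA, against 0.98 and 1.20 untreated. The clone RA arrays lay below all others, and the parental groups did not overlap either. The fall in the clone was log2 -1.88 ± 0.29 (limma standard error from a spread fitted over all 4 groups of 2 arrays, adjusted p = 0.0245). The parental difference was -0.68 ± 0.29 (limma adjusted p = 0.353). Averaged over both lines, where slide row cancels, Egln3 fell by 1.28 ± 0.21 on the log2 scale (adjusted p = 0.023). The clone was lower than the parental line under RA by log2 -1.72 ± 0.29 (adjusted p = 0.00704) and by -0.52 ± 0.29 untreated (adjusted p = 0.343), which gives an average of -1.12 ± 0.21 (adjusted p = 0.00774). The responses of the lines were not shown to differ (-1.20 ± 0.41, adjusted p = 0.262).

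The second Egln3 probe, tested with every probe as its own feature, gave -1.21 for RA in the clone (adjusted p = 0.145) and -1.40 between the lines under RA (adjusted p = 0.0454). The RA call in the clone ended with no filter on dim probes (adjusted p = 0.0891), with only the clone groups fitted (0.103), and without clone RA replicate 1 (0.0683), clone untreated replicate 1 or 2 (0.126 and 0.19) or either untreated parental array (0.0553 each). The average RA call ended with no filter (0.0807) and without clone untreated replicate 1 or 2 (0.0731 and 0.111), parental RA replicate 1 (0.0702) or parental untreated replicate 1 or 2 (0.0886 and 0.0796).

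Ankrd37, a small ankyrin repeat protein gene known as a hypoxia-inducible factor target in human cells, moved the other way. It read 1.88 and 1.49 on the clone RA arrays, against -0.19 and 0.31 on the untreated clone arrays. In the parental line it read -0.63 and -1.23 with RA, against -0.50 and -0.64 untreated. The clone RA arrays lay above all others, whereas the parental groups overlapped. The rise in the clone was 1.62 ± 0.34 (adjusted p = 0.046), and RA moved the parental line by -0.36 ± 0.34, not past the threshold (adjusted p = 0.721). With RA present the clone was 6.12-fold above the parental line (2.61 ± 0.34, adjusted p = 0.00241), and untreated the difference was 0.63 ± 0.34 (adjusted p = 0.326). Its RA responses in the lines were 1.99 ± 0.48 apart, which did not pass (adjusted p = 0.145). The rise in the clone stood close to the threshold, and ended in 12 of 18 alternatives. These included normexp background correction (adjusted p = 0.0671), no filter (0.132), slide side as a block (0.0584) and leaving out any 1 of the 8 arrays except clone RA replicate 2 (0.0541 to 0.225). The difference between the lines under RA was called in all 18.

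Slc2a1 encodes GLUT1, the glucose transporter of most dividing cells. It read 0.71 and 0.78 on the clone RA arrays, against 1.50 and 1.51 on the untreated clone arrays. Parental levels were 0.91 and 1.34 with RA, against 2.41 and 1.98 untreated. The RA arrays lay below the untreated ones in both lines, by -0.76 for the clone (adjusted p = 0.195) and -1.07 for the parental line (0.153). The average RA difference of -0.91 ± 0.21 missed the threshold (adjusted p = 0.0515). It was called from the series table values (adjusted p = 0.0492), among probes detected on every array (0.022) and under a trended, robust variance (0.0162).

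Ldha encodes the lactate dehydrogenase subunit that favours the making of lactate from pyruvate. Its brightest probe read 7.23 and 6.92 on the clone RA arrays against 8.14 and 7.83 on the untreated clone arrays, and 7.91 and 7.13 with RA in the parental line against 8.25 and 7.86 untreated. The clone groups did not overlap and the parental ones did. The RA differences were -0.91 in the clone (interval -1.75 to -0.07, adjusted p = 0.202) and -0.53 in the parental line (-1.38 to 0.31, adjusted p = 0.592). The 3 Ldha probes did not follow each other in the parental line: the dimmest read 0.73 and 2.71 on its untreated arrays, and its correlation with the brightest was 0.02 over the 8 arrays, given as a description.

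Pdk1, a mitochondrial kinase that inhibits pyruvate dehydrogenase and so limits the turning of pyruvate into acetyl-CoA, set the lines apart. It read -0.84 and -0.64 on the clone RA arrays, against -4.55 and -4.52 on the parental RA arrays. Untreated it read -1.92 and -1.45 in the clone, against -4.87 and -3.79 in the parental line, where 1 of the 2 arrays was not well above background. All 4 clone arrays exceeded all 4 parental arrays. Under RA the clone was 13.9-fold higher (log2 3.80 ± 0.40, adjusted p = 0.0011) and untreated 6.27-fold higher (2.65 ± 0.40, adjusted p = 0.00819), with an average of 3.22 ± 0.28 (adjusted p = 0.00033). RA differences were 0.94 ± 0.40 in the clone (adjusted p = 0.235) and -0.21 ± 0.40 in the parental line (adjusted p = 0.89). With normexp background correction the differences between the lines were 2.37 under RA (adjusted p = 0.00509), 1.08 untreated (0.201) and 1.72 on average (0.0032). The untreated call also ended without clone untreated replicate 2 (2.41, adjusted p = 0.0804).

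Bnip3, a mitochondrial outer membrane protein that tags mitochondria for mitophagy, was also higher in the clone. It read 3.18 and 3.22 on the clone RA arrays, against 2.37 and 1.93 on the parental RA arrays. Untreated it read 3.30 and 3.59 in the clone, against 2.63 and 2.75 in the parental line. No clone array overlapped a parental one. The difference was 2.07-fold under RA (1.05 ± 0.28, adjusted p = 0.0375), 0.76 ± 0.28 untreated (adjusted p = 0.159) and 0.90 ± 0.20 on average (adjusted p = 0.0158). All 3 Bnip3 probes had a positive average difference between the lines, of 0.90, 0.83 and 1.21. Each passed by limma when every probe was its own feature (adjusted p = 0.0204, 0.0329 and 0.0177). The third probe was dim, at -5.14 and -5.33 on the parental RA arrays. Its RA difference in the parental line was -1.65, against -0.54 and -0.55 for the other probes. The call under RA ended in 10 of 18 alternatives, among them no filter (0.0943) and the omission of any array other than parental RA replicate 1 (0.068 to 0.125). Leaving out clone untreated replicate 2 or parental untreated replicate 1 ended the average call (0.0689 and 0.0596).

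**Figure D2:**
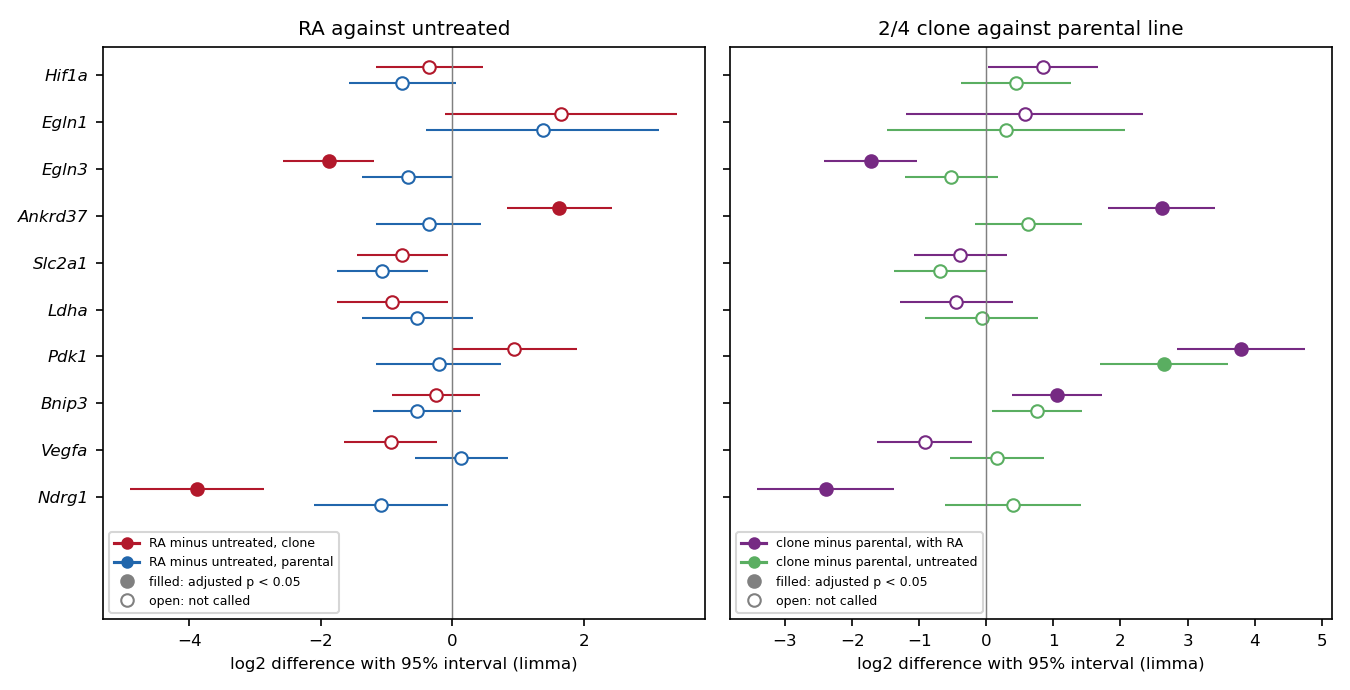
Log2 differences of the 10 genes with 95% intervals from limma, for RA against untreated in each line (left, clone and parental) and for the clone against the parental line with RA and untreated (right). Filled points passed an adjusted p under 0.05. Ndrg1 and Egln3 lie left of 0 in both lines on the left, and Pdk1 lies farthest right in both comparisons on the right.

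Vegfa, the vascular endothelial growth factor gene, read 2.96 and 3.24 on the clone RA arrays, against 3.80 and 4.28 on the untreated clone arrays. On parental arrays it was 4.02 and 4.03 with RA, against 4.04 and 3.73 untreated. The clone RA arrays were the lowest and the other groups overlapped. The RA difference in the clone was -0.94 ± 0.30 (adjusted p = 0.128), and under RA the clone differed from the parental line by -0.92 ± 0.30 (adjusted p = 0.0661). That difference under RA passed with the mean of the gene's probes (-1.09, adjusted p = 0.0267), among probes detected on every array (0.0405) and under a trended, robust variance (0.0237). In the parental line the RA difference was 0.14 ± 0.30 (adjusted p = 0.903) by the brightest probe and 1.01 (adjusted p = 0.33) by the other, which read 0.64 and 1.20 with RA, against -0.52 and 0.33 untreated.

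**Figure D3:**
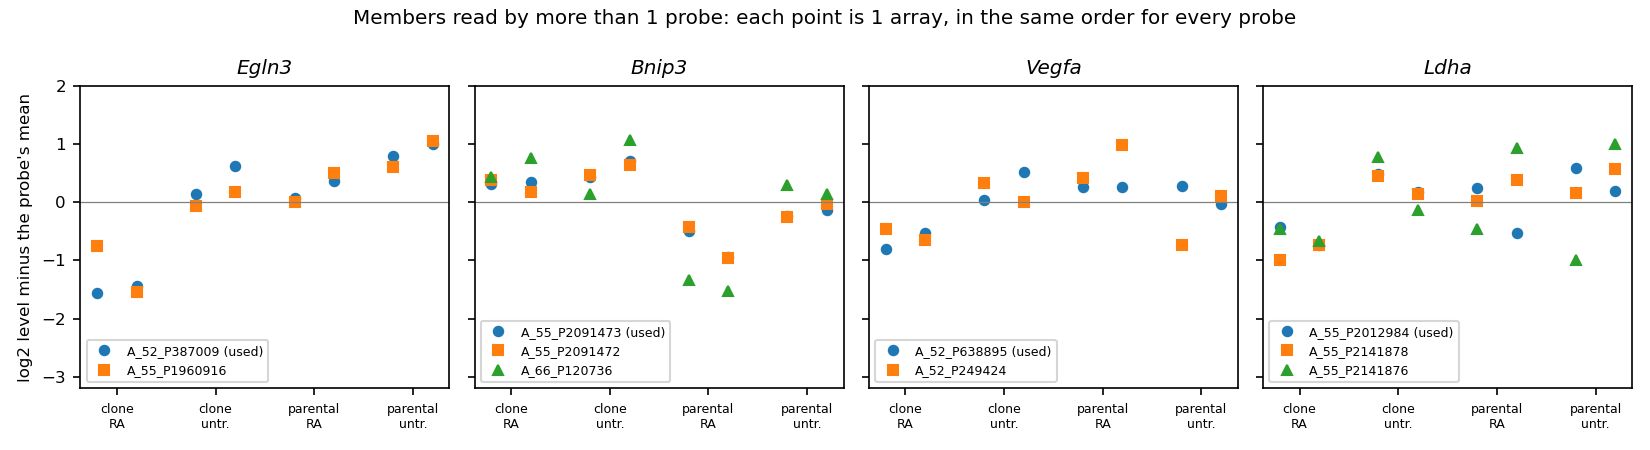
Levels of the probes of Egln3, Bnip3, Vegfa and Ldha on the 8 arrays, each as log2 level minus the mean of that probe (vertical axis), with arrays in the order clone RA, clone untreated, parental RA and parental untreated. Probes of Egln3 and Bnip3 follow each other across groups (correlation 0.93 for the Egln3 pair), while those of Ldha spread in the parental line. The Vegfa pair follows less closely (correlation 0.48).

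Ndrg1, a gene of differentiation and stress named for its repression by N-myc, had the largest RA difference among the 10 in the clone and on average, though not in the parental line. It read -2.80 and -4.08 on the clone RA arrays, against 0.48 and 0.41 on the untreated clone arrays. In the parental line it read -0.93 and -1.16 with RA, against 0.18 and -0.10 untreated. The RA arrays lay below the untreated arrays in both lines, and the clone RA arrays below all others, with an SD of 0.90 between them. The clone RA arrays were dim for this probe, at intensities of 67.8 and 57.0 before scaling, though both were well above background. The size of the fall in the clone therefore rests on low intensities. RA differences were -3.88 ± 0.43 in the clone (limma adjusted p = 0.0145) and -1.08 ± 0.43 in the parental line (adjusted p = 0.314). Averaged over both lines Ndrg1 fell by 2.48 ± 0.30 on the log2 scale (adjusted p = 0.0124). Under RA the clone was 5.26-fold lower than the parental line (-2.39 ± 0.43, adjusted p = 0.00865), whereas untreated the difference was 0.40 ± 0.43 (adjusted p = 0.639). The RA responses of the lines differed by -2.80 ± 0.61, which did not pass (adjusted p = 0.125). It passed after quantile normalization (-3.29, adjusted p = 0.0336), among probes detected on every array (0.0459) and under a trended, robust variance (0.0426).

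The RA call of Ndrg1 in the clone ended with no filter (adjusted p = 0.0639), with only the clone groups fitted (0.1) and without clone untreated replicate 1 or 2 (0.109 and 0.157). Its average RA call ended with no filter (0.0532) and without clone untreated replicate 1 or 2 (0.0661 and 0.0768), parental RA replicate 1 (0.0522) or parental untreated replicate 1 or 2 (0.0687 and 0.0545). Its difference between the lines under RA ended with only the RA groups fitted (0.0551) and without parental RA replicate 1 (0.0514). Averaged over treatments the clone was lower by log2 -0.995 ± 0.30 (adjusted p = 0.0492), a call that 10 of 17 alternatives ended, normexp among them (-0.62, adjusted p = 0.186), as did the omission of any array except clone RA replicate 1 (0.0593 to 0.139).

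Averaged over both treatments, 3 of 10 members were higher in the clone (Pdk1, Ankrd37 and Bnip3) and 2 lower (Egln3 and Ndrg1), against 16.1% and 11.6% of all genes (27.7% in either direction). Averaged over both lines, 0 rose and 2 fell with RA (Ndrg1 and Egln3), against 3.13% and 2.7% of all genes (5.83% in either direction). For the contrast of both RA responses limma called 0 of 10, against 0.206% of all genes (0.122% higher and 0.0838% lower), with Ndrg1, Egln3, Ankrd37 and Vegfa at an unadjusted p under 0.05 (0.00248, 0.0229, 0.0043 and 0.0371), a threshold that 13.9% of all genes passed. The median log2 difference over the members was -0.56 with RA in the clone and -0.53 with RA in the parental line, against 0.02 over all genes in each. Over the 8 arrays, Ndrg1 was most like Egln3 among the members (Pearson r = 0.89), Ankrd37 most like Pdk1 (0.88), and Ankrd37 and Egln3 ran opposite (-0.86). These correlations share arrays and groups and are descriptions. Among 12190 other named genes above background on all arrays, the patterns most like Ndrg1 were those of Wwtr1, Tmem37 and Elmod3 (r = 0.98 each), and most like Egln3 those of Alg14, Smagp and Dnph1 (0.99 each).

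Around the members, 77 other genes of the pathway were listed by role, of which 70 could be tested. With RA in the clone 3 of 70 (4.29%) were called, all lower, against 4.63% of all genes, which is near the background. They were Hmox1, which breaks down haem, at -2.94 ± 0.38 (adjusted p = 0.0192), Stc2, a secreted glycoprotein, at -2.46 ± 0.31 (0.0188), and Car12, a membrane carbonic anhydrase, at -1.61 ± 0.28 (0.0309). Leaving out clone untreated replicate 1 or 2 ended the calls of Hmox1 (-3.11 and -2.77), Stc2 (-2.52 and -2.39) and Car12 (-1.40 and -1.81). Car12 also lost its call without clone RA replicate 1 (-1.69) or either untreated parental array (-1.61 each). With no filter on dim probes all 3 calls ended (limma adjusted p = 0.0767, 0.0767 and 0.102). The same held with only the clone groups fitted (0.1, 0.1 and 0.11), and for Car12 with normexp (0.0662). With RA in the parental line 1 of 70 (1.43%) was called, against 1.12% of all genes: Ndufa4l2, a mitochondrial protein gene induced by hypoxia, at -2.82 ± 0.37 (0.0223), a call that held without either clone RA array and ended without any other array (0.0537 to 0.167). Averaged over the lines 5 of 70 were lower and 1 higher (8.57%), against 5.83% of all genes, and 0 were called without any 1 of the 4 untreated arrays and 1 without parental RA replicate 1. These were Hmox1, Stc2, Car12 and Ndufa4l2 at -1.94, -1.78, -1.48 and -1.88, with Ak4, an adenylate kinase, at -1.21 and Tfrc, the transferrin receptor, at 1.14, the last pair named after their values were seen. Of the 22 genes of glucose transport and glycolysis 0 passed for the average RA difference by limma and 13 had an unadjusted p under 0.05, a threshold that 22.7% of all genes passed, while 19 were negative and 3 positive, with a median of -0.57 against 0.02 over all genes. Of the 5 tested subunits and partners, and of the 10 sensing and turnover genes, 0 were called for that difference by limma, with 1 of each at an unadjusted p under 0.05.

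**Figure D4:**
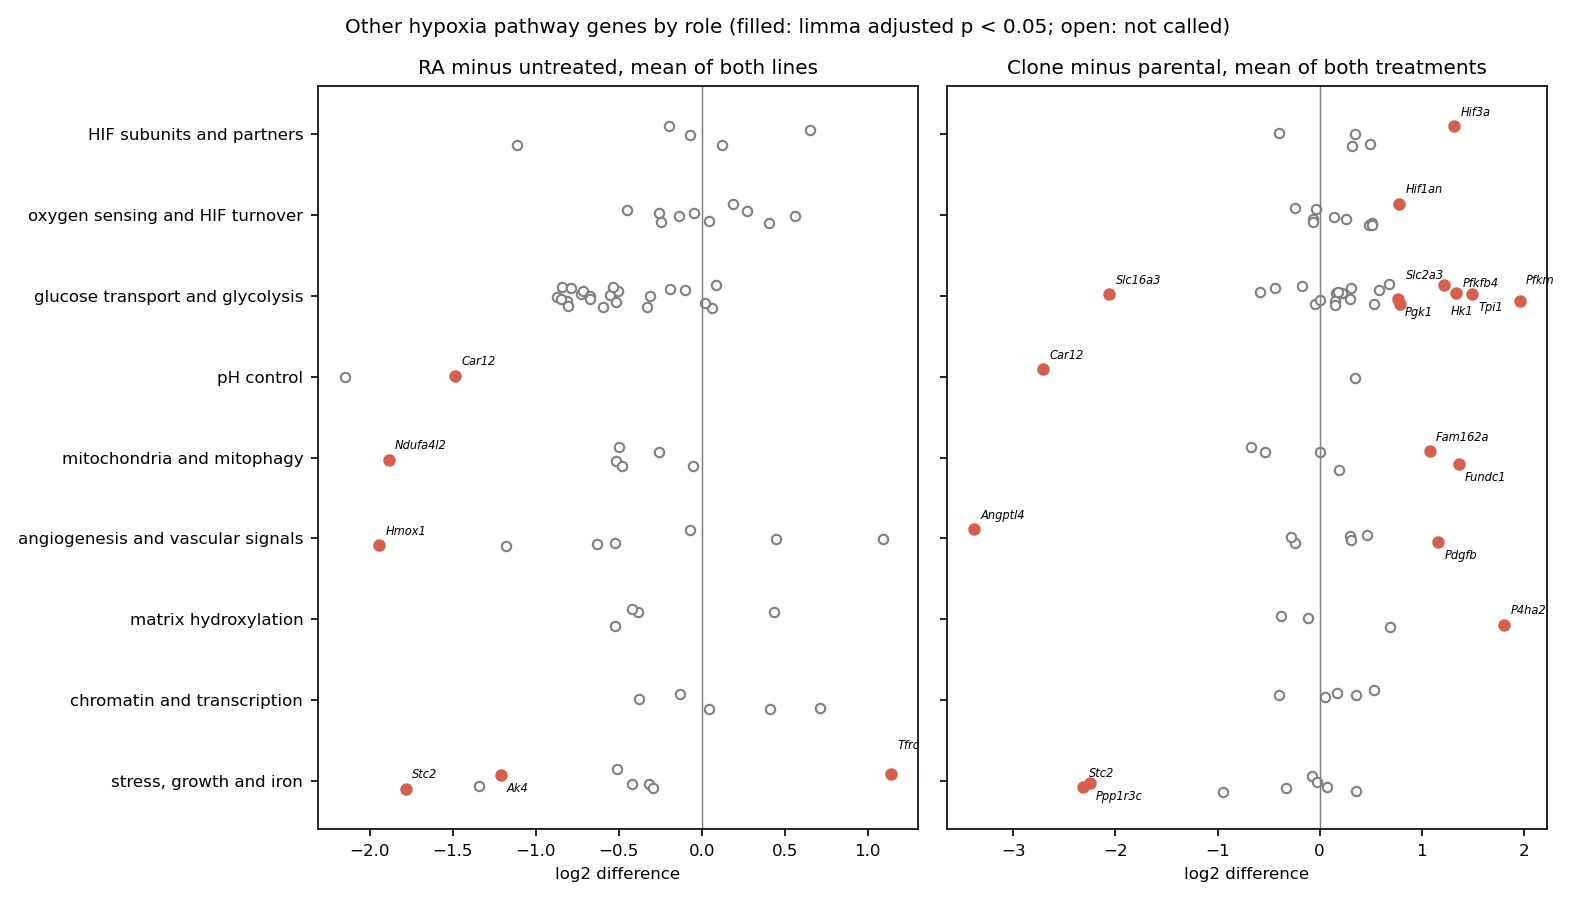
Log2 differences of the other pathway genes by role, for RA minus untreated averaged over both lines (left) and clone minus parental averaged over both treatments (right), with 1 point per gene, filled where limma's adjusted p was under 0.05. On the left the 22 glycolysis genes lie mostly below 0 with none called, and on the right the called genes stand on both sides of 0.

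Between the lines, averaged over treatments, 12 of the 70 were higher in the clone and 6 lower (25.7% in all), which is near the 27.7% of all genes. Without 1 array 12 to 19 were called. Of the 22 genes of glucose transport and glycolysis, 6 were higher and 1 lower (31.8% in all), near the 27.7% of all genes. Higher were Pfkm, a phosphofructokinase, at 1.96 ± 0.22 (limma adjusted p = 0.000939), and Tpi1, triosephosphate isomerase, at 1.49 ± 0.23 (0.00355). So were Pfkfb4, a regulator of phosphofructokinase, at 1.34 ± 0.28 (0.0135), and Hk1, a hexokinase, at 1.22 ± 0.21 (0.00538). Slc2a3, the transporter GLUT3, was higher at 0.79 ± 0.18 (0.0194), and Pgk1, phosphoglycerate kinase, at 0.77 ± 0.19 (0.024). The calls of Slc2a3 and Pgk1 ended without any 1 of the 4 untreated arrays, that of Pgk1 also without parental RA replicate 2 (0.0538), and that of Pfkfb4 when replicate 2 of the untreated clone (0.0556) or of the untreated parental line (0.0512) was left out. Slc16a3, the lactate exporter MCT4, was lower at -2.06 ± 0.21 (0.000575), with 2.82 and 2.79 on the clone RA arrays against 5.15 and 5.53 on the parental RA arrays. P4ha2, a collagen prolyl hydroxylase subunit, was higher at 1.81 ± 0.24 (0.00196), Fundc1, a mitophagy receptor, at 1.36 ± 0.25 (0.00783), Hif3a, a further alpha subunit, at 1.32 ± 0.29 (0.016) and Fam162a, a mitochondrial protein gene, at 1.08 ± 0.20 (0.00813). The Hif3a call ended with the mean of its probes (0.246) and without clone untreated replicate 2 (0.0645) or either untreated parental array (0.05 and 0.0551). The other 2 called higher were Hif1an, the asparaginyl hydroxylase that restrains the alpha subunit, at 0.78 ± 0.23 (0.0458) and Pdgfb, a growth factor, at 1.16 ± 0.35 (0.046), both named after their values were seen.

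Angptl4, a secreted inhibitor of lipoprotein lipase, was lower in the clone at -3.38 ± 0.31 (limma adjusted p = 0.000374), Car12 at -2.71 ± 0.20 (0.000148) and Stc2 at -2.32 ± 0.22 (0.000471). Ppp1r3c, a glycogen-targeting phosphatase subunit, was lower at -2.25 ± 0.34 (0.00344) and was not called with normexp (0.143). Its clone levels were very dim, at -6.91 and -5.61 with RA and -6.24 and -5.49 untreated, so the size of its difference is uncertain. Under RA 8 of 70 were higher and 7 lower in the clone (21.4% in all), near the 23.2% of all genes, and 10 to 14 were called without 1 array, the higher ones including Aldoc, an aldolase, at 1.70 ± 0.34 (0.0133) and the lower ones Higd1a, a mitochondrial protein gene, at -1.17 ± 0.27 (0.0212), a call that ended without either clone RA array (0.0545 and 0.0615) or parental RA replicate 1 (0.0725). Untreated, 3 were higher and 6 lower (12.9% against 9.82% of all genes), and 1 was called without any 1 of the 4 untreated arrays. For the difference between the RA responses limma called 0 of 70, with 10 (14.3%) at an unadjusted p under 0.05, against 13.9% of all genes.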

How the data were processed

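Total RNA from the 4 groups was labelled with Cy3 and hybridised to 8 one-colour arrays of Agilent mouse design 028005. The intensity values are as Feature Extraction 10.7.3.1 wrote them, per the file headers: local background removed, spatial trend corrected, arrays not scaled to each other. The log2 values of the series table were deposited by the authors and, for probes with 1 spot, equalled the log2 intensity minus 1 constant per array to within 1.94e-06.

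Here log2 of the intensity was taken minus the array's 75th percentile, controls aside. Each array has 62976 spots, from which 3671 controls were left out, as were spots marked as outliers, and repeat spots were averaged per probe. The filter kept 36636 of 55681 probes, those well above background on 2 or more of the 8 arrays. The brightest probe stood for each gene, which gave 26262 genes, 15183 with a symbol through RefSeq accessions of GRCm38.p6. limma 3.58.1 (R 4.3.3) fitted group means over the 8 arrays, on 4 residual and about 3 prior degrees of freedom, and a gene was called where its p, adjusted by Benjamini-Hochberg over all genes, was under 0.05. The labels do not say whether the samples of a group were separate cultures, so p-values measure only the spread between these samples. With 2 arrays per group, their number limits the precision.

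The 10 members and the pathway list of 77 genes were chosen with earlier results of these data known. All members are described, and of the list the 20 genes with the smallest adjusted p in any comparison are named, except 1 that is neither reported nor drawn here. The alternatives were normexp background correction on median spot signals (offset 50), quantile normalization, the series table values, 2 other filters on dim probes, averaging a gene's probes, a trended, robust variance, fits on the compared groups alone, slide side as a block, leaving out each array and, added after the data were seen, every probe as its own feature. The fit was tested on simulated data, a check whose result is not given here.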

Additional observations from a re-analysis of the deposited data

Results flagged for a closer look

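The RA differences of 3 of the tested pathway genes, P4ha2, Aldoc and Os9, had opposite directions in the lines, with no overlap of the arrays with and without RA in either line. P4ha2, a collagen prolyl hydroxylase subunit, had a log2 RA difference of 0.24 in the clone, against -1.28 in the parental line, and the limma test of their difference gave 1.52 ± 0.48 (adjusted p = 0.23). Aldoc, an aldolase, had 0.31 in the clone, against -1.93 in the parental line, and that test gave 2.24 ± 0.48 (adjusted p = 0.124). Os9, whose product takes part in protein quality control, had 0.33 in the clone, against -0.61 in the parental line, and that test gave 0.93 ± 0.37 (adjusted p = 0.323). It was named after its values were seen. None of the 3 passed. How many of all genes had opposite directions without overlap was not counted, so the 3 have no background share beside them. Slide row goes with this comparison and its part was not tested. No member met the same condition, and groups of 2 arrays are too small for a search for outlying samples.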

How the results depend on the processing

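All 16 called member differences kept their direction in the alternatives run, with 217 of 278 values past the threshold. For the 48 called differences of named pathway genes, 681 of 841 values stayed past it and 0 reversed. For RA in the clone 3 members were called, and 0 with no filter on dim probes or with only the groups compared, both of which change what is fitted, and 0 to 3 without 1 array (0 without either untreated clone array, 1 without clone RA replicate 1 or either untreated parental array). For the average RA difference the count was 2, and 0 with no filter and 0 to 2 without 1 array (0 without any 1 of the 4 untreated arrays or parental RA replicate 1). Between the lines under RA it was 5, 3 with only the groups compared and 4 without any 1 array. Between the untreated lines it was 1, and 0 with normexp, among probes detected on every array (8 members left, Pdk1 not among them) or without clone untreated replicate 2, with 0 to 1 over the arrays left out. Averaged over treatments it was 5, and 3 to 5 without 1 array, with 3 lacking clone untreated replicate 2 or parental untreated replicate 1. For the difference between RA responses it was 0, and 1 after quantile normalization, among probes detected on every array or under a trended, robust variance. Where the settings do not themselves change the features or samples fitted, the cause was not tested. The median log2 difference of all genes was 0.11 between the untreated lines and -0.19 with normexp, and under RA 0.11 and -0.15 after quantile normalization. The labels number each array once and pair none across groups. Slide side, which holds 1 array of each group and coincides with the replicate numbers, was fitted as a block and ended the calls of Ankrd37 for RA in the clone (limma adjusted p = 0.0584) and Bnip3 under RA (0.0516). Of the 70 pathway genes, 3 were called for RA in the clone (0 to 6 without 1 array, 0 to 14 under the other settings), 1 for RA in the parental line (0 to 3, 0 to 6), 6 for the average RA difference (0 to 8, 0 to 20), 15 between the lines under RA (10 to 14, 6 to 19), 9 between the untreated lines (1 to 10, 1 to 15) and 18 averaged over treatments (12 to 19, 14 to 22). Dim signal limits Egln1 and Pdk1 in the parental line, and the fold size of Ndrg1 on the clone RA arrays.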
